A study of Homo sapiens with 2 samples.

Results

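The 3p arms of the let-7 hairpins were examined in exosomes, the small vesicles that cells release, from 2 human liver cancer cell lines. The members were all mature miRNAs whose name starts with let-7 and ends in -3p, 10 of the 793 mature miRNAs in the deposited count table, with miR-98-3p left out. They were chosen with earlier results on these same read counts known, so their levels and ratios are given as a description, without a test. MHCC97H, a line known for its high metastatic potential, and HepG2, a widely used liver tumor line, are both labelled as hepatocellular carcinoma. Each line is represented by 1 small RNA library, no treatment is listed, and both lines grew in medium whose serum was free of exosomes. Cell line and library preparation therefore cannot be told apart, and every interval below covers counting error only.

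A let-7 hairpin is cut into a short duplex of a 5p and a 3p strand. The 5p strand is usually the guide that is loaded into Argonaute and represses growth genes such as RAS and HMGA2, and the let-7 guides are known as restraints on liver tumor growth. The 3p strand is usually the passenger that is discarded, and a passenger that persists carries another seed, the bases at positions 2 to 8 that pair with targets. Several hairpins give the same 5p strand but different 3p strands, so the 3p reads can separate some hairpins that the 5p reads do not.

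The mature sequences show how far the 3p arms differ from each other, and they are printed 5′ to 3′ with the seed in capitals. RefSeq (GRCh38.p14) held 9 of the 10 arms, without hsa-let-7f-2-3p. The prefix hsa-, for human, is left out of the text that follows.
hsa-let-7a-3p: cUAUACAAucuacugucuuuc
hsa-let-7b-3p: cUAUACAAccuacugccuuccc
hsa-let-7f-1-3p: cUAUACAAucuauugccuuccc
hsa-let-7d-3p: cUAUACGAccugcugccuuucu
hsa-let-7e-3p: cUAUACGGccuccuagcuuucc
hsa-let-7c-3p: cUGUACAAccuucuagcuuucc
hsa-let-7a-2-3p: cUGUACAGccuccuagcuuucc
hsa-let-7g-3p: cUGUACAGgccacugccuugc
hsa-let-7i-3p: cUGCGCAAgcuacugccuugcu
hsa-let-7a-5p, shown for its guide seed: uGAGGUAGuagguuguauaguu

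The 9 arms carried 6 different seeds, whereas all 8 let-7 5p arms carried the single seed GAGGUAG. The arms let-7a-3p, let-7b-3p and let-7f-1-3p shared the seed UAUACAA, which miR-98-3p carries too. The arms let-7a-2-3p and let-7g-3p shared UGUACAG. Over the first 21 bases, the 36 pairs among these 9 arms differed at 2 to 10 positions. Of these, 3 pairs differed at 2 positions only: let-7a-2-3p with let-7c-3p, let-7a-2-3p with let-7e-3p, and let-7b-3p with let-7f-1-3p. The mismatch setting of the authors' mapping is not given in the sources used here, so reads of these close pairs may be shared between the names. let-7f-2-3p could not be compared, so a closer pair with it, and reads shared with it, are possible.

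The 11 let-7 hairpins lie in 8 places of the genome (GENCODE release 29, GRCh38). MIRLET7A1, MIRLET7F1 and MIRLET7D lie within 2964 bases on chromosome 9 (94175957 to 94178920, plus strand), in introns of the long noncoding RNA AL158152.2. MIRLET7A3 and MIRLET7B lie within 1020 bases on chromosome 22 (46112749 to 46113768, plus strand), and both overlap exons of MIRLET7BHG. On chromosome X, MIRLET7F2 (53557192 to 53557274, minus strand) and MIR98 are neighbors within HUWE1, both intronic. MIRLET7A2 lies in an intron of MIR100HG on chromosome 11 (122146522 to 122146593, minus strand) and MIRLET7C in an intron of MIR99AHG on chromosome 21 (16539828 to 16539911, plus strand). MIRLET7E lies in an intron of SPACA6 on chromosome 19 (51692786 to 51692864, plus strand). MIRLET7G lies in an intron of WDR82 on chromosome 3 (52268278 to 52268361, minus strand), and MIRLET7I in an intron of AC048341.1 on chromosome 12 (62603686 to 62603769, plus strand).

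Depth was 13.3-fold greater in MHCC97H, with 304457 miRNA reads, than in HepG2, with 22831. Levels are given in CPM, counts scaled to a common total of miRNA reads, and each read added 3.28 CPM in MHCC97H but 43.8 CPM in HepG2. Where an arm had no read, up to 3 reads were allowed for, a limit of 9.85 CPM for MHCC97H and 131 CPM for HepG2.

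All 10 let-7 3p arms were detected in MHCC97H exosomes and 2 of them in HepG2 exosomes. Of all 793 miRNAs, 763 were detected in MHCC97H and 362 in HepG2, so nothing is read from these counts. Together the let-7 3p arms had 2429 reads in MHCC97H, which is 7978 CPM, and 4 reads in HepG2, which is 175 CPM. The summed level was thus 45.5-fold higher in MHCC97H (95% exact interval 17.8 to 167). The sum in HepG2 rested on 3 reads of let-7d-3p and 1 read of let-7a-3p, and the other 8 arms had no read there.

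The most abundant arm, let-7a-3p, is made by MIRLET7A1 and MIRLET7A3. It had 959 reads in MHCC97H, or 3149.9 CPM (2954 to 3356), and 1 read in HepG2, or 43.8 CPM (1.11 to 244). Its CPM was 71.9-fold higher in MHCC97H (12.9 to 2843), with intervals that did not overlap. The arm let-7d-3p, the passenger of the third hairpin of the chromosome 9 cluster, had 365 reads in MHCC97H, or 1199 CPM (1079 to 1328), and 3 reads in HepG2, or 131 CPM (27.1 to 384). It was 9.12-fold higher in MHCC97H (3.10 to 44.4), and the intervals of these 2 ratios overlapped.

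The other arms had no read in HepG2, so their ratios are bounds set against 3 HepG2 reads. Such a bound takes the MHCC97H reads as counted, and the exact interval of the ratio began lower. let-7b-3p, from the chromosome 22 cluster, had 456 reads in MHCC97H, or 1498 CPM (1363 to 1642). That was 11.4-fold the level of 3 HepG2 reads (the exact interval began at 9.23). let-7f-1-3p, from the chromosome 9 cluster, had 284 reads, or 933 CPM (827 to 1048), with a bound of 7.10-fold (interval from 5.74). The arm of MIRLET7C, let-7c-3p, had 155 reads, or 509 CPM (432 to 596), with a bound of 3.87-fold (interval from 3.11). The MHCC97H levels of these 3 arms lay above the 131 CPM that 3 reads give in HepG2. The bounds depend on the scaling. After median centring, which subtracts the median log2 ratio of all miRNAs, that of let-7b-3p was 5.26-fold (interval from 4.26). That of let-7f-1-3p was then 3.27-fold (from 2.65), and that of let-7c-3p 1.79-fold (from 1.44).

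The remaining 5 arms came close to the HepG2 detection limit or fell under it. let-7f-2-3p had 100 reads in MHCC97H, or 328 CPM (267 to 399), with a bound of 2.50-fold (interval from 2.00). After median centring its interval began at 0.92. let-7a-2-3p had 62 reads, or 204 CPM (156 to 261), and its bound was 1.55-fold (interval from 1.22). That bound was 0.71 after median centring and 0.98 with a total without the 10 most abundant miRNAs, so it gave no direction under these scalings. let-7e-3p had 39 reads, or 128 CPM (91.1 to 175), just under the 131 CPM of 3 HepG2 reads, so no ratio can be given. let-7g-3p had 6 reads, or 19.7 CPM (7.23 to 42.9), and let-7i-3p had 3 reads, or 9.85 CPM (2.03 to 28.8). At their MHCC97H level, let-7e-3p would give 2.92 reads in the HepG2 library, let-7g-3p 0.45 and let-7i-3p 0.22. A HepG2 count of 0 would then have a Poisson probability of 0.64 for let-7g-3p and 0.80 for let-7i-3p, so a difference in these arms was not detectable at this depth.

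**Figure D1:**
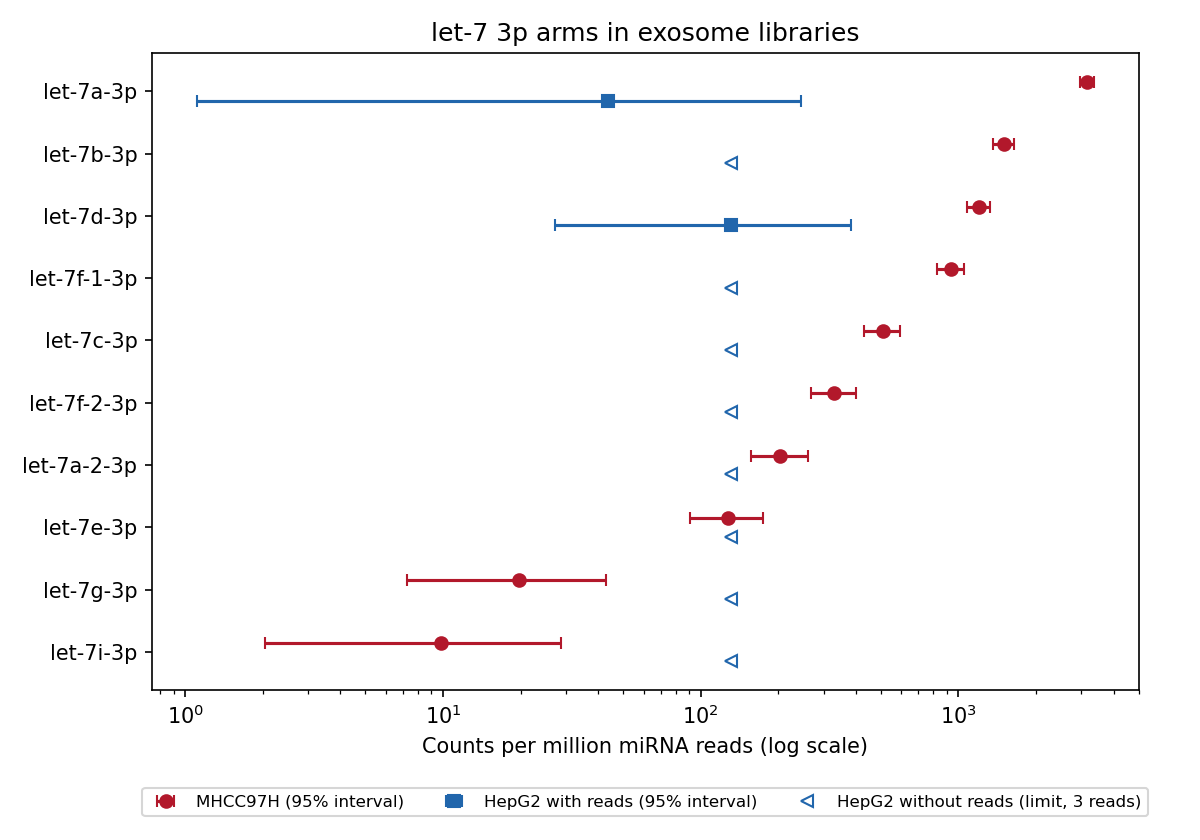
Level of each let-7 3p arm, in CPM on a log scale, with exact 95% counting intervals, for 1 MHCC97H and 1 HepG2 library. Open triangles mark the 131 CPM that 3 reads give in HepG2 for the 8 arms without a read there. The MHCC97H intervals of let-7a-2-3p and of the 6 arms above it lie to the right of that limit, and those of let-7g-3p and let-7i-3p lie to its left. The interval of let-7a-2-3p begins at 156 CPM, under the exact upper end of 162 CPM for a HepG2 count of 0.

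A miRNA was called higher in a library when its CPM differed by at least 2-fold and the exact interval of the ratio excluded 1, and its level reached 10 CPM in either library. let-7i-3p, at 9.85 CPM in MHCC97H, fell just under this level, and let-7g-3p, at 19.7 CPM, was the lowest arm above it. By this rule, 7 of the 10 arms were called higher in MHCC97H and 0 in HepG2, against 20.4% and 9.02% of all 543 miRNAs at that level. Among all 3p arms the share called higher in MHCC97H was 21.5%. Of the 9 arms at that level, 7 reached it only through MHCC97H, so their direction was set by the choice, and nothing is read from the count. The call of let-7a-2-3p used the observed 0 reads, and its bound against 3 reads stayed under 2-fold. With all zero counts set to 3 reads, 5 of the arms met the rule in MHCC97H, against 17.1% of the 543 miRNAs. In HepG2 1 arm did, let-7g-3p, through the 3 reads assumed there, against 18.0%. By the 2-fold criterion alone, 9 arms were called in MHCC97H and 0 in HepG2, against 51.7% and 25.2% of the 543 miRNAs. At 4-fold with the interval it was 7 and 0, against 15.3% and 6.26%.

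The HepG2 depth limits what the count can be set against. The 7 arms called were the ones that would give 3 or more reads in HepG2 at their MHCC97H level. Of all 252 miRNAs that met this condition, 44.0% were called higher in MHCC97H. Of the 58 minor arms outside let-7 that met it, where the minor arm is the one with fewer reads of a hairpin's pair in MHCC97H, 44.8% were called. The median log2 ratio of the 10 arms, with 1 CPM added to both levels, was 7.34, against 1.12 for all 543 miRNAs. With zero counts at 3 reads it was 1.63, against -0.72. The median of all miRNAs thus changed sign with the treatment of zero counts, and neither value is read as a shift of all miRNAs. The size ratio of the libraries was 13.8 by edgeR's TMM and 13.4 by DESeq2, next to the 13.3 of the totals. Set relative to the 1.12 (median centring), the summed 3p arms were 21.0-fold higher in MHCC97H (8.19 to 77.2).

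Within MHCC97H exosomes the arms differed widely. let-7a-3p made up 39.5% of all let-7 3p reads, let-7b-3p 18.8%, let-7d-3p 15.0% and let-7f-1-3p 11.7%. let-7c-3p made up 6.38%, let-7f-2-3p 4.12%, let-7a-2-3p 2.55% and let-7e-3p 1.61%. In the order of reads given here, each arm stood above the next by more than counting error, down to let-7g-3p. The closest such neighbors were let-7b-3p over let-7d-3p, at 1.25-fold (1.09 to 1.44), and let-7d-3p over let-7f-1-3p, at 1.29-fold (1.10 to 1.51). let-7g-3p and let-7i-3p, with 6 and 3 reads, did not differ beyond counting error (2.00-fold, 0.43 to 12.4).

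By seed, the 3 arms with UAUACAA held 1699 reads in MHCC97H, which is 69.9% of the let-7 3p reads, and 1 read in HepG2. let-7d-3p, the single arm with UAUACGA, followed with 365 reads in MHCC97H and 3 in HepG2. The 2 arms with UGUACAG held 68 reads in MHCC97H and 0 in HepG2.

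The table repeats a name for each hairpin that carries the same mature sequence. let-7a-3p is listed with 958 and 959 reads in MHCC97H and with 1 read in HepG2 at each entry. let-7a-5p is listed with 11122, 11123 and 11167 reads in MHCC97H and 104 in HepG2 at each entry. let-7f-5p is listed with 16213 and 16293 reads in MHCC97H and with 133 and 134 in HepG2. The entries of a name were nearly equal, so the highest was used once. Neither the 2 entries of let-7a-3p nor those of the 5p arms can be assigned to a hairpin.

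Counted per hairpin, let-7a-3p had 479.5 reads in MHCC97H for each of MIRLET7A1 and MIRLET7A3, if both gave equal parts. let-7a-2-3p, from MIRLET7A2, had 62 reads, so that the average of the other pair of hairpins was 7.73-fold higher (5.98 to 10.2). These 3 hairpins give the same 5p arm. The hairpins MIRLET7F1 and MIRLET7F2 also give the same 5p arm, and let-7f-1-3p was 2.84-fold higher than let-7f-2-3p (2.25 to 3.60). Reads that let-7f-2-3p may share with other arms could not be judged without its sequence. Per hairpin, let-7a-3p and let-7b-3p (456 reads) did not differ beyond counting error (1.05-fold, 0.94 to 1.18).

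The 3p reads were next set against the 5p reads of the same hairpin or hairpins, pooling those that share a 5p arm. This share is taken within a library and does not depend on scaling between libraries. In MHCC97H, 2429 of 50807 let-7 reads came from the 3p arm, or 4.78% (4.60 to 4.97%). In HepG2 it was 4 of 626 reads, or 0.64% (0.17 to 1.63%). The odds of a 3p read were 7.81-fold higher in MHCC97H (95% exact interval 3.03 to 28.8). All 8 hairpin groups had fewer 3p than 5p reads in both libraries.

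The share spanned a wide range between hairpins. In MHCC97H it was highest for let-7d, at 32.4% (29.7 to 35.3%, 365 of 1125 reads). It was 15.3% for let-7b (14.1 to 16.7%), 14.2% for let-7c (12.2 to 16.4%) and 12.3% for let-7e (8.93 to 16.5%), whose intervals overlapped. It was 8.38% for let-7a (7.89 to 8.88%) and 2.30% for let-7f (2.08 to 2.54%). For let-7g it was 0.073% (0.027 to 0.16%, 6 of 8190 reads) and for let-7i 0.036% (0.0075 to 0.11%, 3 of 8245 reads). let-7g and let-7i thus stood apart from the other 6 groups: they held 34.0% of the let-7 5p reads in MHCC97H and 9 of the 2429 3p reads. Across the 8 groups, Spearman's rho between 5p and 3p reads in MHCC97H was 0.26, within 1 library.

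The ends of this range are shown by 2 hairpins, printed 5′ to 3′ with the 5p and 3p arms in capitals, in this order along the hairpin (RefSeq, GRCh38.p14). MIRLET7D (chr9:94178834-94178920, plus strand) had the highest 3p share, and MIRLET7G (chr3:52268278-52268361, minus strand) one of the 2 lowest. The arms are 32 bases apart in MIRLET7D and 35 in MIRLET7G.
MIRLET7D: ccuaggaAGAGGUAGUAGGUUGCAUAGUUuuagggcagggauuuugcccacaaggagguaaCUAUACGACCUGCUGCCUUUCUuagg
MIRLET7G: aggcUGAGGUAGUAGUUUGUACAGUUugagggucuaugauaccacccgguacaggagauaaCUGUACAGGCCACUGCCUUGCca

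If the 5p reads of let-7a were divided evenly over its hairpins, the share would be 11.4% for the pair MIRLET7A1 and MIRLET7A3 and 1.64% for MIRLET7A2. For let-7f it would be 3.37% for MIRLET7F1 and 1.21% for MIRLET7F2. An even division cannot be checked, since the hairpins share the 5p sequence.

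Among 113 miRNA pairs with 100 or more reads in MHCC97H, the median share of the minor arm was 6.22% (quartiles 1.63 and 19.9%). let-7d ranked 17th from the highest and let-7b 35th, while let-7g ranked 110th and let-7i 112th. The let-7 passengers thus lay between the 17th and the 112th place of these pairs, which include the let-7 groups and minor arms of both sides. Among the 63 pairs whose minor arm was the 3p arm, the median share was 4.33%, and let-7d ranked 10th and let-7i 62nd.

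**Figure D2:**
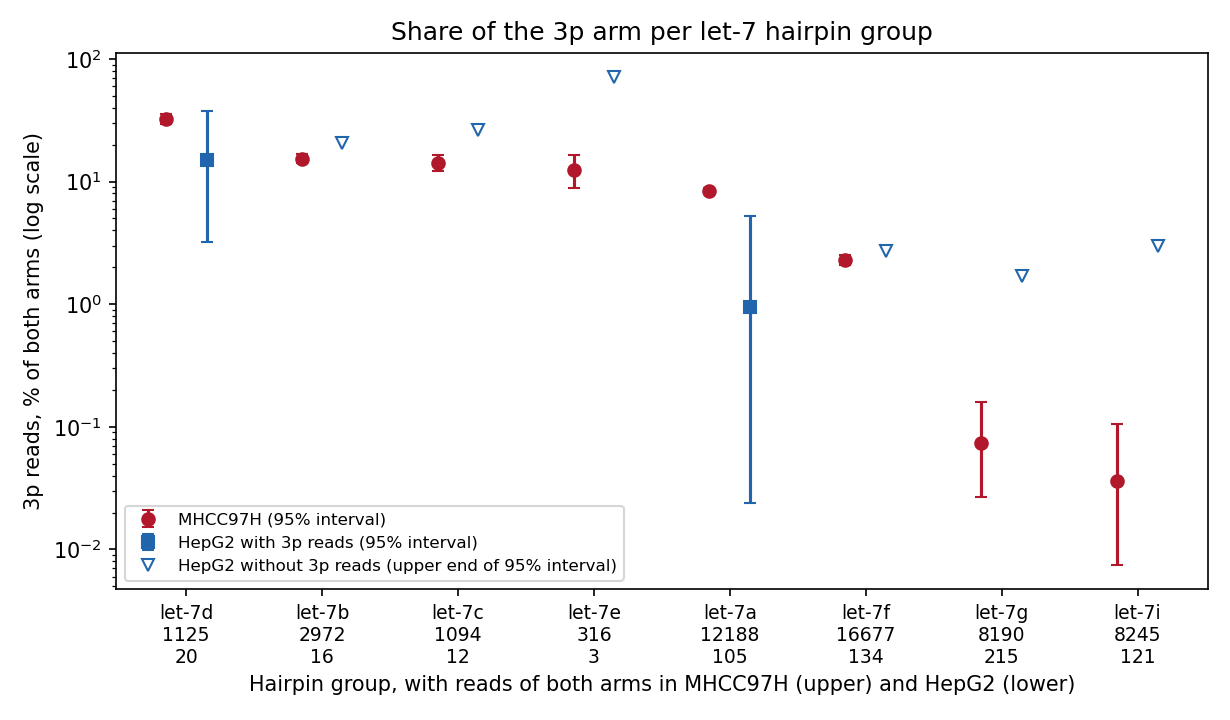
Reads of the 3p arm as a percentage of both arms, on a log scale, for each let-7 hairpin group in MHCC97H and HepG2 exosomes, with exact 95% intervals. Numbers under each name are the reads of both arms in MHCC97H and in HepG2. Open triangles mark the upper end of the interval where HepG2 had no 3p read. The MHCC97H share ran between 32.4% for let-7d and 0.036% for let-7i, and the intervals of the libraries did not overlap for let-7a.

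By hairpin group, let-7a was the group whose 3p share differed between the libraries beyond counting error. It was 8.38% in MHCC97H and 0.95% in HepG2 (1 of 105 reads, 0.024 to 5.19%), with an odds ratio of 9.51 (1.67 to 380). For let-7d it was 32.4% in MHCC97H and 15.0% in HepG2 (3 of 20 reads, 3.21 to 37.9%), and the odds ratio of 2.72 had an interval of 0.78 to 14.6. The other groups had no 3p read in HepG2. There, a count of 0 allowed a share of up to 18.8% for let-7b (16 reads), 25.0% for let-7c (12 reads) and 2.24% for let-7f (134 reads, exact upper end 2.72%). It allowed 1.40% for let-7g (215 reads) and 2.48% for let-7i (121 reads). Of these limits, that of let-7f lay just under the MHCC97H share of 2.30%, and the others lay above theirs. let-7e had 3 reads in HepG2, all from the 5p arm.

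The family's makeup also differed, since let-7g and let-7i held 34.0% of let-7 5p reads in MHCC97H and 54.0% in HepG2. The HepG2 3p reads were therefore also set against the number expected if each group had its MHCC97H ratio of 3p to 5p reads there. On this basis 26.3 reads were expected in HepG2, of which 9.51 would come from let-7a, 8.16 from let-7d, 3.16 from let-7f, 2.90 from let-7b and 1.98 from let-7c. The 4 reads observed were 0.15 of the expected number (0.041 to 0.39, counting error of the 4 reads). Without let-7d, which gave 3 of the 4 reads, this value was 0.055, and the pooled HepG2 share was 0.17%.

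**Figure D3:**
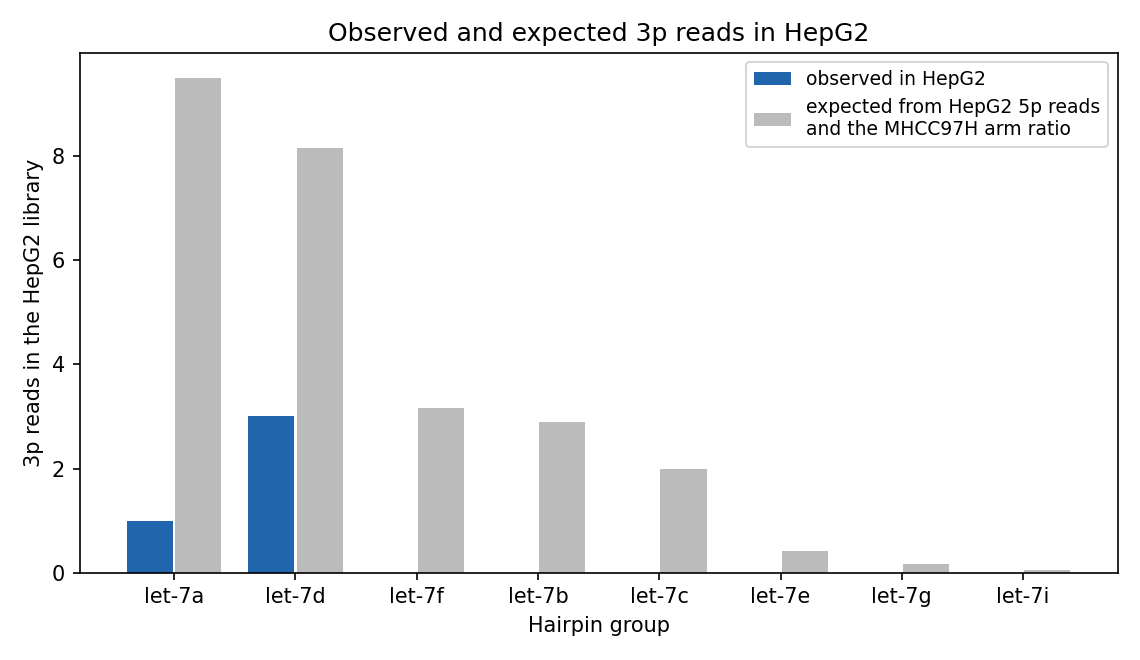
Reads of the 3p arm observed in the HepG2 library, and reads expected from its 5p reads at the MHCC97H ratio of 3p to 5p reads, for each let-7 hairpin group. Observed reads were 1 for let-7a, 3 for let-7d and 0 elsewhere, against a total of 26.3 expected.

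Minor arms of other miRNAs showed a similar lean on the 3p side. For 100 other pairs whose 3p arm was the minor one in MHCC97H, 223 HepG2 reads were observed, 0.27 of the 820 expected (0.24 to 0.31). The miR-21 pair accounted for 405 of these expected reads, and without it the value was 0.45 (0.39 to 0.52). Of the 188 reads then observed, miR-142 gave 59 and miR-27a gave 38, and in HepG2 their 3p arm was the larger. The 0.45 therefore leans on these pairs, and a value without them is not given here. For 90 pairs whose 5p arm was the minor one, the value was 1.23 (1.13 to 1.35). Of the 497 reads observed there, 174 came from the miR-16 pair, which had 1 read of its 3p arm in HepG2. The 1.23 therefore leans on this pair, and it is not read as a contrast between 3p and 5p arms. The interval of the let-7 arms overlapped that of the other 3p arms with miR-21, and its upper end, 0.389, lay next to the lower end of 0.390 without miR-21. The lower 3p share in HepG2 is therefore not called particular to let-7. Some minor arms on both sides, such as those of miR-16, miR-142 and miR-27a, went the other way, so the direction was not shared by all minor arms. For miR-16 the minor arm was the 5p arm, so its 3p share was lower in HepG2. The minor arm was picked by its MHCC97H reads, which by itself tends to make its share lower in MHCC97H. The values for the other pairs are not corrected for this choice.

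Of 84 other pairs with 10 or more reads in each library, 57 had a lower share of the minor arm in HepG2 and the interval of the odds ratio excluded 1 in 21.4%. A higher share in HepG2 met the same criterion in 14.3%. The 57 include pairs without a minor-arm read in HepG2, such as miR-100 and miR-320a, whose direction was set by that count. The 57 is therefore not read as a lean of the other pairs. Of the 7 let-7 groups with 10 or more reads in each library, all 7 had the lower share in HepG2, and 1 of them, let-7a, met the criterion. No 3p read was found in HepG2 for let-7b, let-7c, let-7f, let-7g and let-7i, and a count of 0 is always a lower share. At their MHCC97H arm ratio, let-7g would give 0.16 and let-7i 0.044 reads there, so nothing is read from the 7.

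**Figure D4:**
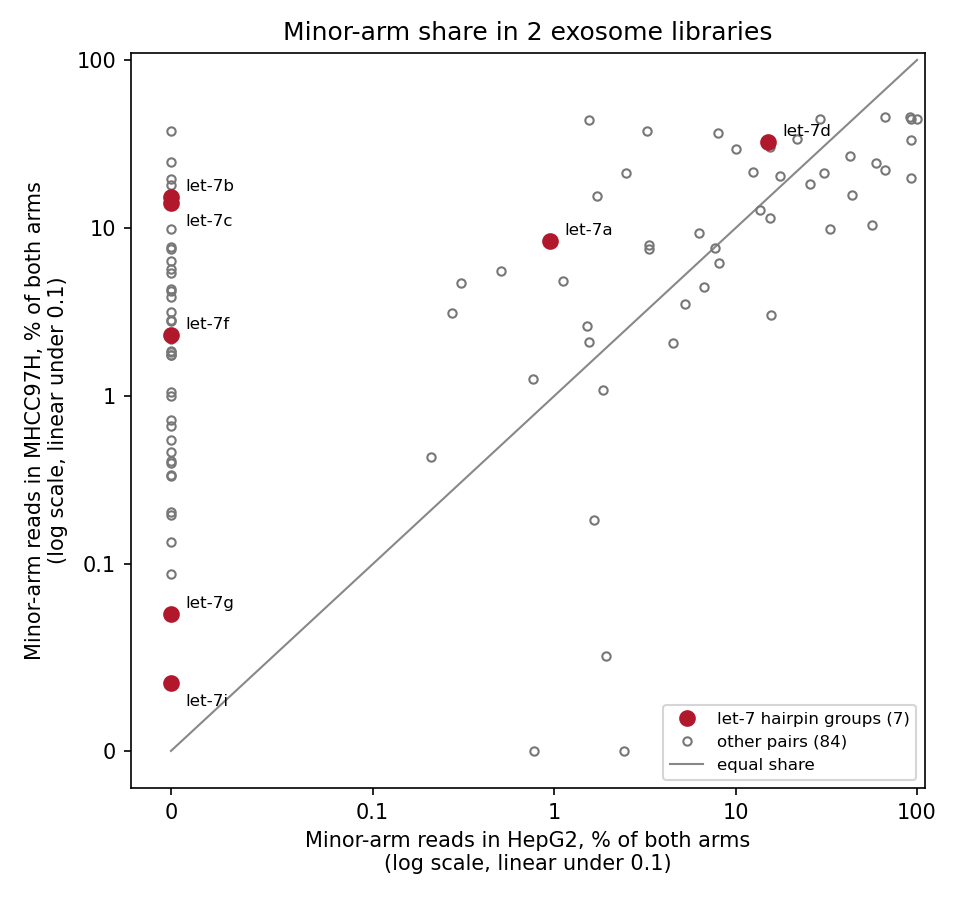
Share of the minor arm (the arm with fewer MHCC97H reads) among the reads of both arms, in HepG2 (horizontal axis) and MHCC97H (vertical axis), for 7 let-7 hairpin groups and 84 other pairs with 10 or more reads in each library. Axes are logarithmic above 0.1% and linear below. All 7 let-7 groups lie above the line of equal share, 5 of them at 0 in HepG2, among 57 other pairs that also lie above it. A pair at 0 in HepG2 lies above the line whenever MHCC97H has a read of the minor arm.

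The 5p guides also leaned to MHCC97H. All 8 were called higher there, against 20.4% of the 543 miRNAs and 44.0% of the 252 that would give 3 or more HepG2 reads, at ratios between 2.85 for let-7g-5p (2.49 to 3.28) and 11.8 for let-7b-5p (7.25 to 20.7). These calls rest on library totals. Median centring lowers each ratio 2.17-fold, which takes let-7g-5p and let-7d-5p under the 2-fold criterion. let-7a-5p was 8.05-fold higher (6.64 to 9.86), against 71.9-fold for let-7a-3p (12.9 to 2843). let-7d-5p was 3.35-fold higher (2.08 to 5.79), against 9.12-fold for let-7d-3p (3.10 to 44.4), and these intervals overlapped.

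The miRNAs that share clusters with let-7 give other passenger arms for comparison. miR-98, beside MIRLET7F2, had 27 reads of its 3p and 487 of its 5p arm in MHCC97H, a share of 5.25% (3.49 to 7.55%), and neither arm had a read in HepG2. miR-100 and miR-125b-1 lie with MIRLET7A2, miR-99a and miR-125b-2 with MIRLET7C, and miR-99b and miR-125a with MIRLET7E. Of the 7 3p arms of these miRNAs and miR-98, 4 were called higher in MHCC97H and 0 in HepG2, and of their 6 5p arms all 6 were called higher in MHCC97H. The share called higher in MHCC97H was 20.4% of all 543 miRNAs, 21.5% of 3p arms and 44.0% of the 252 that would give 3 or more HepG2 reads. Median centring takes both arms of miR-99b, and the 5p arms of miR-125a and miR-125b, under the 2-fold criterion.

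These neighbors varied as widely as the let-7 arms. miR-99a-3p had 2 reads in MHCC97H and 1 in HepG2, a share of 0.051% of both arms in MHCC97H (0.0062 to 0.18%), while let-7c-3p from the same cluster stood at 14.2%. miR-100-3p had 51 reads in MHCC97H and 0 in HepG2, a share of 0.40% in MHCC97H (0.30 to 0.53%). miR-99b-3p, in the cluster of let-7e, had 373 reads in MHCC97H and 10 in HepG2. Its share was 18.3% in MHCC97H (16.6 to 20.0%) and 25.6% in HepG2 (13.0 to 42.1%), with overlapping intervals. miR-125b had more 3p than 5p reads in MHCC97H, 1033 against 521, while in HepG2 it had 1 against 13. The 3p share of miR-125b was 66.5% in MHCC97H (64.1 to 68.8%) and 7.14% in HepG2 (0.18 to 33.9%).

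Among 34 miRNAs whose reads over both libraries were within 2-fold of those of the summed let-7 3p arms, the 3 with the nearest log2 ratio over the 2 libraries were miR-205-5p, miR-30a-3p and miR-365a-5p. miR-205-5p had 1527 reads in MHCC97H and 2 in HepG2, and its log2 ratio differed from 5.50, that of the summed arms, by 0.32. miR-30a-3p had 4770 reads in MHCC97H and 4 in HepG2, with a difference of 0.97. miR-365a-5p had 1625 reads in MHCC97H and 1 in HepG2, with a difference of 1.40.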

How the data were processed

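Per the file headers, the deposited table gives raw counts of reads for each mature miRNA, in a column for each library. cutadapt and Bowtie are listed in the submitters' processing notes; no versions, mapping settings, genome build or miRBase release are stated. Per the labels' protocols, an NEBNext small RNA kit and size selection for short inserts were used, with no molecular identifiers described, so reads are not independent molecules.

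Of 915 entries, 793 names are distinct. 78 names are repeated, 30 of them with unequal counts, and only the highest count was kept. CPM was computed from the totals of these counts. Ratios of CPM and shares of arms carry exact Clopper-Pearson 95% intervals, levels exact Poisson intervals, and odds ratios exact conditional intervals. With 1 library per line there is no p-value and no replicate check. The calls and intervals were tried on simulated counts with counting error only. Recovery was scored for abundant miRNAs, so it does not cover arms with few or no HepG2 reads, and duplicated reads were not simulated.

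The members and the lists (5p arms, cluster neighbors, minor arms of other pairs) were chosen with earlier results of these data known. Named miRNAs were the members, their 5p arms, both arms of miRNAs in the same clusters, and the 3 with the nearest ratio. miR-21, miR-16, miR-142 and miR-27a were named after their values were seen. The expectation from 5p reads and the comparison with other pairs were added after the data were seen. Hairpin positions came from GENCODE release 29 and sequences from RefSeq. Intervals and scaling used scipy 1.17.1 and pandas 2.3.3 under Python 3.11.15. Scaling factors came from edgeR 4.0.16 and DESeq2 1.42.0 (R 4.3.3), and plots from matplotlib 3.10.9.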

Additional observations from a re-analysis of the deposited data

How the results depend on the processing

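No paired analysis was possible because each cell line has 1 library. The summed let-7 3p arms stayed higher in MHCC97H under each of the 7 alternatives run, at 21.0-fold (median centring) to 45.6-fold (lowest count of repeated names), and 6.51-fold with zero counts at 3 reads, where 24 of the 28 HepG2 reads are the assumed ones. Over the 10 alternatives of the calls, 5 to 9 arms were called in MHCC97H, and 0 in HepG2 except 1 with zero counts at 3 reads, let-7g-3p. Median centring and zero counts at 3 reads dropped let-7a-2-3p and let-7f-2-3p, and a total without the 10 most abundant miRNAs dropped let-7a-2-3p. The 9 came from the 2-fold criterion alone. The calls with zero counts at 3 reads and with the lowest count of repeated names were added after the data were seen. Scaling moved the split of all calls: the part that favored MHCC97H was 69.4% by library totals, 35.8% after median centring and 49.7% without the 10 most abundant, and 48.7% with zero counts at 3 reads. The 182 HepG2 reads expected at MHCC97H levels became 84.0 with median centring, 115 without the 10 most abundant and 226 with repeats summed. Summing repeats gave a pooled 3p share of 3.75% in MHCC97H, as it counts let-7a-5p 3 times and let-7f-5p and let-7a-3p 2 times each. Leaving out each hairpin group in turn gave a pooled share of 3.65 to 5.99% in MHCC97H and 0.17 to 0.97% in HepG2, and an observed part of the expected HepG2 reads of 0.055 to 0.18; this last measure and its alternatives were chosen after the data were seen. HepG2 depth limits every comparison between the libraries on let-7e-3p, let-7g-3p and let-7i-3p, and also the HepG2 shares of let-7b and let-7c.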

Other observations

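The GC content of the let-7 3p arms varied against their level. It was lowest in let-7a-3p, at 33.3%, the arm with 959 reads in MHCC97H, and highest in let-7g-3p, at 61.9%, with 6 reads, and let-7i-3p, at 59.1%, with 3 reads. Over the 9 arms with a sequence, Spearman's rho between GC content and MHCC97H reads was -0.84. The arms share 1 library and related sequences, and let-7a-3p comes from 2 hairpins. Over 92 minor 3p arms of other pairs the same rho was -0.060, and over 259 other 3p arms it was -0.050. The relation was noticed in these data and was not tested.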
